A study of Homo sapiens with 12 samples.

Results

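Among 41755 regions of ac4C enrichment in SW620 cells, 1342 had their midpoint in no protein-coding gene of the same strand. N4-acetylcytidine (ac4C) is an acetylated cytidine found in ribosomal RNA, transfer RNA and other transcripts, and NAT10 is the acetyltransferase that writes it. Peaks outside coding genes can lie on non-coding RNAs, on antisense RNAs, on transcripts that begin upstream of the annotated start of a gene, or on copies of other RNAs in the genome. The regions were built by pooling the peaks of 6 libraries and merging those that shared at least 1 base on the same strand. Of the 1342, 1157 were in no coding gene on either strand and 185 were opposite to a coding gene. A further 32778 regions were inside a coding gene of their strand, and 7635 lay in a coding gene whose strand was not given in the gene table used here, so they could not be placed and were left out.

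SW620 is a human colorectal cancer cell line. The libraries were acRIP-seq, in which fragmented total RNA is immunoprecipitated with an antibody against ac4C. For the comparison, 3 libraries came from cells with a control short hairpin RNA (shControl, genotype given as WT), 3 came from cells with a hairpin against NAT10 (shNAT10, NAT10 knockdown), and each library had its own peak list. The hairpins were delivered by lentivirus and the lines were kept under selection; the labels do not say which NAT10 hairpin was used, nor that replicates were separate cultures, so p-values measure only the spread between these libraries. The 6 input libraries of the 12 samples were not analysed here. The lists held 17877 to 28752 peaks, the longest list being shNAT10 replicate 1. They were deposited as lists for mRNA, and they hold no counts, so the sequencing depth behind a peak is unknown. Each peak has a score that starts at 50 and stands at exactly 3100 for 7.61% to 13.7% of a library's peaks. Scores were therefore only ranked within a library. Peaks in the NAT10 gene numbered 1, 0 and 2 in shControl and 2, 0 and 1 in shNAT10, which does not measure its expression. Of 11 colorectal epithelial marker genes, 5 had a peak in all 6 libraries, against 0 of 6 markers of other cell types. In at least 1 library, 7 of the 11 had a peak, as did 1 of the 6 (COL1A1, in 3 libraries). CDX1, KRT18, KRT20 and GPA33 had none.

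Most of the regions outside coding genes were attached to one. The start of a coding gene of the same strand lay within 749 of the 1342 regions, an end within 14, and the edge of a gene of unknown strand within 138. The other 441 touched no coding gene of their own or unknown strand and are called detached here. Start-crossing regions sat close to the gene: their midpoints were a median of 54 bases before the annotated start, 508 of 749 were no more than 100 bases before it, and their outer ends reached a median of 259 bases upstream (range 27 to 2639). A median of 112 of their bases lay inside the gene.

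The stretches just before 5 gene starts show what these regions cover. Each line gives the 250 bases before the annotated start, written 5′ to 3′ on the strand of the gene from the RefSeq promoter table (GRCh38.p14), with capitals where the peaks of every library that listed one covered the base. TIMP1 had the peak in all 6 libraries, RPLP2 and TARDBP in the shNAT10 libraries, and TOM1L1 and CD55 in the shControl libraries.
TIMP1, chrX:47582186-47582435, + strand: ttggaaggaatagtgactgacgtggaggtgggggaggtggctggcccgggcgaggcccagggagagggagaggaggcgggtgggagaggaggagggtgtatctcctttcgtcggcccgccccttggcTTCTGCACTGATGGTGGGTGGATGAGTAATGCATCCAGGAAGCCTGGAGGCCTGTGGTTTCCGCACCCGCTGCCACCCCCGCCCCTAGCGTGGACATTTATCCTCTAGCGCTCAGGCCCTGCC
RPLP2, chr11:809717-809966, + strand: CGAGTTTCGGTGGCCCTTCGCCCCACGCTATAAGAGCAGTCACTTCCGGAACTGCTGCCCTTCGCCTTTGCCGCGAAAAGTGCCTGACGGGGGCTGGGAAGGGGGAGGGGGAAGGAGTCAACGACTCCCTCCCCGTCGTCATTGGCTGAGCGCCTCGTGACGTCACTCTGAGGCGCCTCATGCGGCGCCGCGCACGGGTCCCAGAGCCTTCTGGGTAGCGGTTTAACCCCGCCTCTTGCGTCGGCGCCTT
TARDBP, chr1:11012404-11012653, + strand: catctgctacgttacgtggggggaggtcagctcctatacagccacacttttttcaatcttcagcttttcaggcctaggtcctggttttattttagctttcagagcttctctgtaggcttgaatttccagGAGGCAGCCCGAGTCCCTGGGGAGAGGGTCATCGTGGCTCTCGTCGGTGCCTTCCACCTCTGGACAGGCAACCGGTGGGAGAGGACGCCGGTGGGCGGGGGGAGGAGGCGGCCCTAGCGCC
TOM1L1, chr17:54900602-54900851, + strand: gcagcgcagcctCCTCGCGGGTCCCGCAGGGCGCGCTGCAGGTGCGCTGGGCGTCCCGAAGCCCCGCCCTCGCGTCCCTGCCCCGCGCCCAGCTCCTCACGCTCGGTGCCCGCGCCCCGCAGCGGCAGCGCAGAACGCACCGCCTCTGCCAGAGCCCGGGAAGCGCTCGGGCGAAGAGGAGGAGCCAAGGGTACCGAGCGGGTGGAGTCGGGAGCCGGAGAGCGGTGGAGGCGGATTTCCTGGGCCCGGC
CD55, chr1:207321428-207321677, + strand: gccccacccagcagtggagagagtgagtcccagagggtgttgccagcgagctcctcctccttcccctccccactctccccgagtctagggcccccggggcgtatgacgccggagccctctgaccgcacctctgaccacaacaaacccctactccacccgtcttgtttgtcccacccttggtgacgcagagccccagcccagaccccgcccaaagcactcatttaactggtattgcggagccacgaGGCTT
The common covered stretch took in all 250 bases at RPLP2, 238 at TOM1L1, 123 at TIMP1, 121 at TARDBP and 5 at CD55.

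A promoter window at the annotated start was found for 724 of the 749 start-crossing regions. The 250 bases before these starts had a median GC content of 66.0%, the same as the 66.0% before 2630 starts that lay within a region whose midpoint was inside the gene, and above the 62.4% over all 13819 coding starts with a window. The unit CNN, a cytidine followed by any other bases (N), occurred 4 times in a row on the gene's strand in 89.5% of the start-crossing windows, 86.4% of the inside windows and 78.4% of all windows. The GC box GGGCGG was on either strand in 71.0%, 74.1% and 56.0% of them, and the TATA sequence TATAAA in 3.87%, 4.49% and 9.63%. Shares for CCAAT on either strand were 35.1%, 37.8% and 35.2%. These are descriptions of letters in DNA windows and were not tested.

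Start-crossing regions recurred across libraries, and detached regions mostly did not. All 6 libraries listed 432 of the 1342 regions (32.2%), compared with 22.0% of all 41755 regions. The share was 43.1% for start-crossing regions (323 of 749) and 48.3% for regions across a start with their midpoint inside the gene (1302 of 2698). It was 9.52% for detached regions (42 of 441). A single library listed 60.8% of the detached regions, compared with 38.7% of all regions. The share listed by all 6 was 32.9% for regions in no coding gene and 27.6% for regions opposite to one. Near the boundary that the midpoint sets, the classes had like shares: 74 of 210 start-crossing regions with a midpoint up to 25 bases before the start were in all 6 libraries (35.2%), as were 130 of 377 regions with a midpoint in the first 25 bases of the gene (34.5%). Merging lengthens a region that more libraries list, which makes it more likely to reach a gene; its part in these shares was not tested by region.

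**Figure D1:**
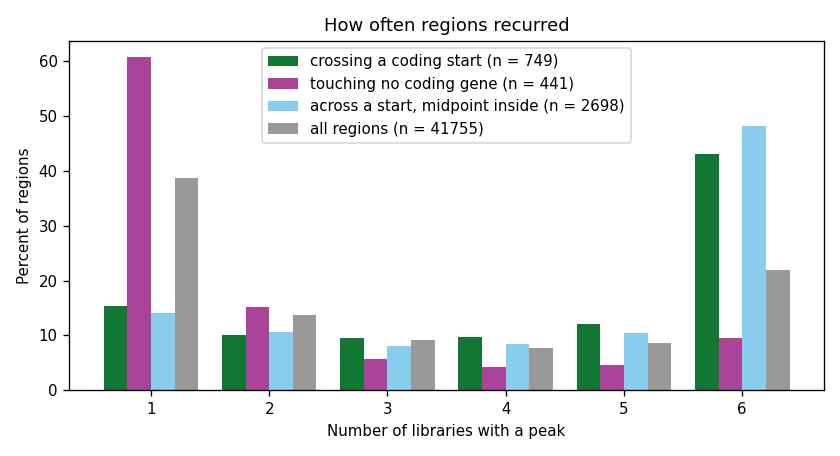
Bars give the percent of regions (vertical axis) with a peak in 1 to 6 libraries (horizontal axis) for 749 start-crossing regions, 441 detached regions, 2698 regions across a start with their midpoint inside the gene, and all 41755 regions. Detached regions are at 60.8% for 1 library and 9.52% for 6, and start-crossing regions at 15.4% and 43.1%.

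Within each library, peaks of the 1342 regions were longer and scored higher than all other peaks. Their median length averaged 342 bases ± 32.1 (SD, n = 6 libraries) against 209 ± 14.8, a difference of 133 bases that was above 0 in 6 of 6 libraries (two-sided exact sign-flip test, p = 0.03125, the smallest that 6 libraries can give; Benjamini-Hochberg adjusted p = 0.0391 over 15 such tests). The median score percentile was 11.7 points higher (61.2 against 49.6, exact sign-flip p = 0.03125), and the share of peaks in regions of all 6 libraries was 11.1 points higher (56.1% against 45.0%, exact sign-flip p = 0.03125). The libraries share regions, so the 6 values of the last measure are not independent. In another setting, regions with any base in a coding gene of the same or unknown strand were counted with the other peaks. The last pair of differences then turned negative. The difference in length was then 41.2 bases. That in score percentile was -9.08 points (exact sign-flip p = 0.03125) and that in the share -14.9 points (exact sign-flip p = 0.03125). Start-crossing peaks were part of the comparison group in this setting.

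The detached regions are the same regions that still counted as outside in the setting above. Comparisons of detached peaks are therefore not a separate check of that setting. All comparisons in this paragraph were added after the data had been seen. Detached minus start-crossing peaks, the median length differed by -99.8 bases (255 against 355), the score percentile by -24.5 points (41.0 against 65.5) and the share found in all 6 libraries by -31.1 points (30.6% against 61.7%), with the same sign in 6 of 6 libraries each (exact sign-flip test, adjusted p = 0.0391 each). Against all other peaks, detached peaks were 45.9 bases longer, and their score percentile differed by -8.59 points (adjusted p = 0.0391 each, exact sign-flip test). Start-crossing peaks were 55.5 bases longer than peaks that spanned a start from inside the gene, and their share found in all 6 libraries differed by -5.09 points (exact sign-flip test, adjusted p = 0.0391 each). Their score percentile differed by -0.22 points, with library differences from -2.39 to 0.96 (exact sign-flip p = 0.75). A region counts as start-crossing only if it is long enough to reach the gene from a midpoint outside it. The length differences given here for this class are therefore partly set by how it is defined.

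**Figure D2:**
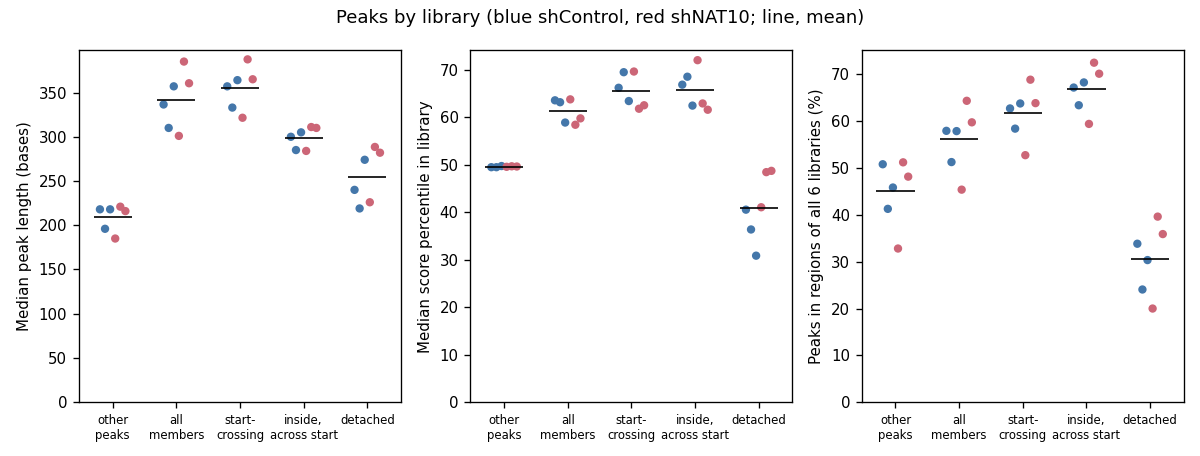
Points are the 6 libraries (blue shControl, red shNAT10) and lines their means, for median peak length in bases, median score percentile within the library, and the percent of peaks in regions found in all 6 libraries. Detached peaks have the lowest mean score percentile (41.0) and start-crossing peaks (65.5) are near peaks that span a start from inside the gene (65.7).

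The edges of start-crossing regions differed in how often libraries shared them. Of 634 start-crossing regions listed by more than 1 library, 594 (93.7%) had the same downstream end in every library that listed them, and 243 (38.3%) the same upstream end. Over all 25614 such regions the shares were 73.8% downstream and 80.2% upstream. The 2317 regions that spanned a start from inside the gene had shares of 89.0% downstream and 65.4% upstream, so a downstream end shared more often than the upstream end was not particular to regions outside genes. These shares were not tested.

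The 10 regions in no coding gene named by the rule had scores of at least 3100 in every library. Shorter regions, such as that of 211 bases at FKBP1A, also had a lowest score of 3100. The 10 were thus picked by length among tied scores. EP300 encodes a lysine acetyltransferase, and its region (chr22:41091786-41093098) was identical in 6 of 6 libraries and began 806 bases before the gene. Regions at TNK2, a tyrosine kinase (chr3:195908485-195909802), and at U2AF2, a splicing factor (chr19:55654146-55655153), were also identical in all 6 and began 1251 and 889 bases upstream. The region at SERP1 (chr3:150546052-150547177) shared its end in the gene, while its peaks were 944 to 1126 bases long. At TRIM8 a region of 2878 bases was identical in every library, but the strand of that gene was not given.

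Histone genes supplied 3 of those 10 regions and 1 of the 10 opposite ones, each crossing the end of the gene instead of the start. They were next to H3C14, H2BC8 and H2AC11, and to H3C15, whose region lay opposite to H4C15. The H3C14 and H3C15 regions were both 1656 bases long, on opposite strands of chromosome 1. Histone genes are near-identical multicopy genes, so the assignment of reads among them is uncertain. Peaks at H2AC11 ran from 580 to 1285 bases and those at H2BC8 from 655 to 1151.

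Regions opposite to a coding gene lay a median of 2038 bases from its start, with an upper quartile of 16881. Of 185, 92 lay in the first 10% of the gene and 11 in the last 10%, and 82 were within 1000 bases of the start. Of the 104 detached ones, 22 were within 1000 bases (21.2%), so most of those near a start touched another coding gene. Among the 10 that scored highest in all 6 libraries, 5 lay at the starts of pairs of genes that run apart from each other. Their midpoints were inside the opposite gene. That of the THAP2 region (chr12:71663009-71664580) was 54 bases into ZFC3H1, that of SMPD4 486 bases into MZT2B and that of RAD1 215 bases into BRIX1. The midpoint at SNRNP25 was 74 bases into POLR3K, and that at PRPF4, a splicing factor, 16 bases into CDC26. All were listed by 6 of 6 libraries. Their lowest score was 3100 at THAP2, SMPD4 and RAD1, 2826.61 at SNRNP25 (shControl replicate 2) and 2659.46 at PRPF4 (shControl replicate 1). TIMP1, which encodes an inhibitor of metalloproteinases, lies within SYN1 on the other strand, and its region of 162 bases was identical in all libraries. Of the others, the region opposite to RNF220 lay in the lncRNA LOC107984950 (chr1:44635238-44636457), that opposite to DDX27 was 554 bases long and detached, and that opposite to S100PBP reached the edge of YARS1, whose strand was not given. All 3 had scores of 3100 in every library. Peaks opposite to a gene were compared with peaks in no coding gene after the data had been seen. Those opposite were 161 bases longer (487 against 326, exact sign-flip p = 0.03125, adjusted p = 0.0391 over 15 tests). Their score percentile differed by -0.74 points, with library differences from -8.28 to 4.85 (exact sign-flip p = 0.78125).

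A non-coding gene or pseudogene of the same or unknown strand held 164 of the 441 detached regions (37.2%), compared with 28 of the 901 regions that touched a coding gene (3.11%). In all, 192 regions fell in 132 such genes, of which 84 were lncRNAs, 35 transcribed pseudogenes and 9 other pseudogenes, and 94 of the 132 held 1 region. Of the 337 detached regions in no coding gene on either strand, 182 were in no gene of any type.

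In most of the genes with the most regions, no single region was listed by all 6 libraries. CASTOR3P, a pseudogene, held 7, none in more than 4 libraries. DIP2C-AS1, which is antisense to DIP2C, held 5 in shControl replicates 2 and 3 and shNAT10 replicate 1 only, with scores from 56.52 to 321. LOC124902471 held 4, TMEM105 4 and PKD1L2 4, none in more than 2 libraries. CYP2D7 and FAM86C1P held 3 each, none in all 6.

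LINC02693, LRP5L and LOC100630923 had regions in all 6 libraries. At LRP5L, a pseudogene with 5 regions, the region at chr22:25381381-25381578 scored 972.27, 1754.89 and 2283.77 in shControl replicates 1 to 3 and 3100, 2113.07 and 1831.65 in shNAT10. The groups overlapped. Its region at chr22:25405202-25405377 scored 3039.17, 3100 and 2337.81 in shControl and 3100, 3100 and 2679.34 in shNAT10, and peak edges were identical in both places. At LOC100630923, an lncRNA of known strand, all 3 regions were in all 6 libraries with identical edges. Of these, the region at chr7:102395977-102396537 crossed the start of the coding gene PRKRIP1. The others also lay in the pseudogene LOC100289561, whose strand was not given. LINC02693 had 1 of 5 regions in all 6, scoring 449.17, 1155.01 and 906.15 in shControl and 812.44, 797.57 and 679.94 in shNAT10.

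The longest detached region was 4630 bases long (chr22:41693463-41698092), inside the pseudogene C22orf46P and upstream of MEI1, with single peaks of 3282 to 4630 bases and scores of 3100 in all 6 libraries. A region 375 bases before TPM4, a tropomyosin, also scored at least 3100 in every library. At the divergent lncRNA TCF12-DT the midpoint of a region found in all 6 was 35 bases from the start of TCF12 on the other strand, and at ARIH2OS it was 202 bases from that of ARIH2. Over all detached regions, 41 of 441 had a coding start on the other strand within 1000 bases.

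MTRNR2L genes are nuclear copies of the mitochondrial 16S ribosomal RNA. Regions overlapped 3 of the 13 in the table, and 2 were in all 6 libraries: MTRNR2L12 (chr3:96617192-96618236, lowest score 3100) and MTRNR2L8 (chr11:10507887-10509189, lowest score 311.74). Reads from the mitochondrial RNA can match such copies, so the source of these peaks is uncertain. In a list of 45 well-known non-coding RNAs, 43 had an entry as a non-coding gene, and 0 of these, MALAT1, NEAT1, NORAD and GAS5 among them, held one of the 1342 regions. The spans of 5 held regions that were inside a coding gene or of unknown gene strand. The lists were deposited as mRNA lists.

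Sequences of 7 microRNA genes were overlapped on the same strand by 6 regions, 4 of them found in all 6 libraries. Of 6 mature sequences in the RefSeq table (GRCh38.p14), the 5 with the most libraries are shown, with the seed (bases 2 to 8) in capitals. Each lies fully inside its merged region, and coverage by each library's peak was not checked.
hsa-miR-4485-3p, chr11:10508277-10508296, - strand: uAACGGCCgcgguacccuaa
hsa-miR-1281, chr22:41092545-41092561, + strand: uCGCCUCCuccucuccc
hsa-miR-4444, chr2:177212768-177212785, + strand: cUCGAGUUggaagaggcg
hsa-miR-2861, chr9:127785971-127785989, + strand: gGGGCCUGgcggugggcgg
hsa-miR-3652, chr12:103930425-103930442, + strand: cGGCUGGAggugugagga
No seed was shared among these 5. The first lies in the MTRNR2L8 region, and the others in regions across the starts of EP300, HNRNPA3, CDK9 and HSP90B1, the last listed in 3 shControl and 2 shNAT10 libraries. A peak of this length does not tell a hairpin from the longer transcript around it.

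Knockdown of NAT10 was compared with control by the share of each library's peaks that lay outside coding genes, placing each peak by its own midpoint. That share was 3.74%, 3.31% and 3.44% in shControl and 3.03%, 3.52% and 3.49% in shNAT10. The groups overlapped, with means of 3.49% ± 0.221 and 3.35% ± 0.272 (SD, n = 3 each, two-sided exact permutation p = 0.6). Peaks in no coding gene made up 2.99% ± 0.209 and 2.90% ± 0.273 (exact permutation p = 0.7). Peaks opposite to a gene were 0.515%, 0.491% and 0.503% of the shControl lists and 0.445%, 0.453% and 0.431% of the shNAT10 lists. These groups did not overlap, and the difference of -0.0602 points had the smallest p that 3 against 3 can give (exact permutation p = 0.1, adjusted p = 0.3 over 3 tests), so it does not pass 0.05. With the 50% of peaks that scored highest, it was -0.00845 points (exact permutation p = 0.9).

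**Figure D3:**
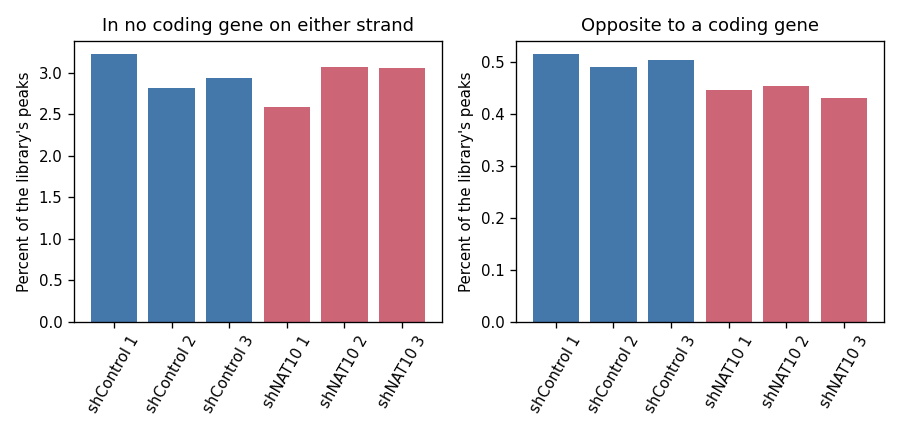
Bars give the percent of each library's peaks in no coding gene on either strand (left) and opposite to a coding gene (right) for the 6 libraries. The groups overlap on the left; on the right the shControl bars are at 0.491% to 0.515% and the shNAT10 bars at 0.431% to 0.453%.

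Few regions were listed by every library of a single group. Of the 1342, 8 had a peak in 3 of 3 shControl and 0 of 3 shNAT10 libraries (0.596%), where 0.34% of all regions did, and 7 had the opposite pattern (0.522%), where 0.819% of all regions did. With a difference of at least 2 libraries the counts were 69 (5.14%) and 54 (4.02%), beside 4.07% and 5.92% of all regions. For a single region, the smallest p that Fisher's exact test allows with 3 against 3 libraries is 0.1. Only 1 of the 15, 222 bases before SIDT1, was detached.

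RPLP2 and EWSR1 had the highest scores among them. RPLP2 encodes a protein of the ribosomal stalk, and its peak (chr11:809647-810039) was identical in shNAT10 replicates 1 to 3 with a score of 3100 in each, while no shControl library listed a peak there or within 1500 bases on either strand. EWSR1 encodes an RNA-binding protein, and its peak (chr22:29268009-29268349) was likewise identical with 3100 in each. Scores at the SUGP1 start were 1369.91, 894.33 and 1213.81 in shNAT10, and a peak on the other strand next to it was listed in 6 of 6 libraries. The SUGP1 peak of shNAT10 replicate 1 (chr19:19320463-19320509) ended at the annotated start and had no base before it. With peaks required to cover 50% of the region, the SUGP1 difference (shNAT10 minus shControl) was 2 libraries. TARDBP, which encodes the RNA-binding protein TDP-43, scored 114.49, 203.6 and 99.78, and C1orf216 94.67, 115.64 and 102.5. FXR1 and USP18, outside the naming rule and named after their values were seen, had lowest scores of 53.65 and 52.02. For C1orf216 and USP18, the strand of the gene was not given.

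Of the regions listed only in shControl, that at the edge of RPH3AL, whose strand was not given, had the highest scores. It scored 1754.53, 1603.75 and 1501.19, TOM1L1 136.56, 134.23 and 73.6, and CD55, a complement regulator, 126.92, 60.02 and 80.45. SIDT1 scored 58.75, 203.06 and 59.97. MMAB, an enzyme of cobalamin metabolism, was the only one opposite to a gene (MVK), with 456.26, 128.12 and 362.35. A peak on the other strand that overlapped its region was listed in shControl replicate 2 and in 3 of 3 shNAT10 libraries, and with peaks required to cover 50% of the region its difference (shNAT10 minus shControl) was -2 libraries. With strand ignored in merging, 7 regions were listed only in shControl. WDR19 and WDR11, also outside the rule, had lowest scores of 50.25 and 50.15, at the floor of the lists. With the 50% of peaks that scored highest, TOM1L1, CD55, SIDT1, WDR19, WDR11, TARDBP, C1orf216, FXR1 and USP18 had a difference of 0 libraries.

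**Figure D4:**
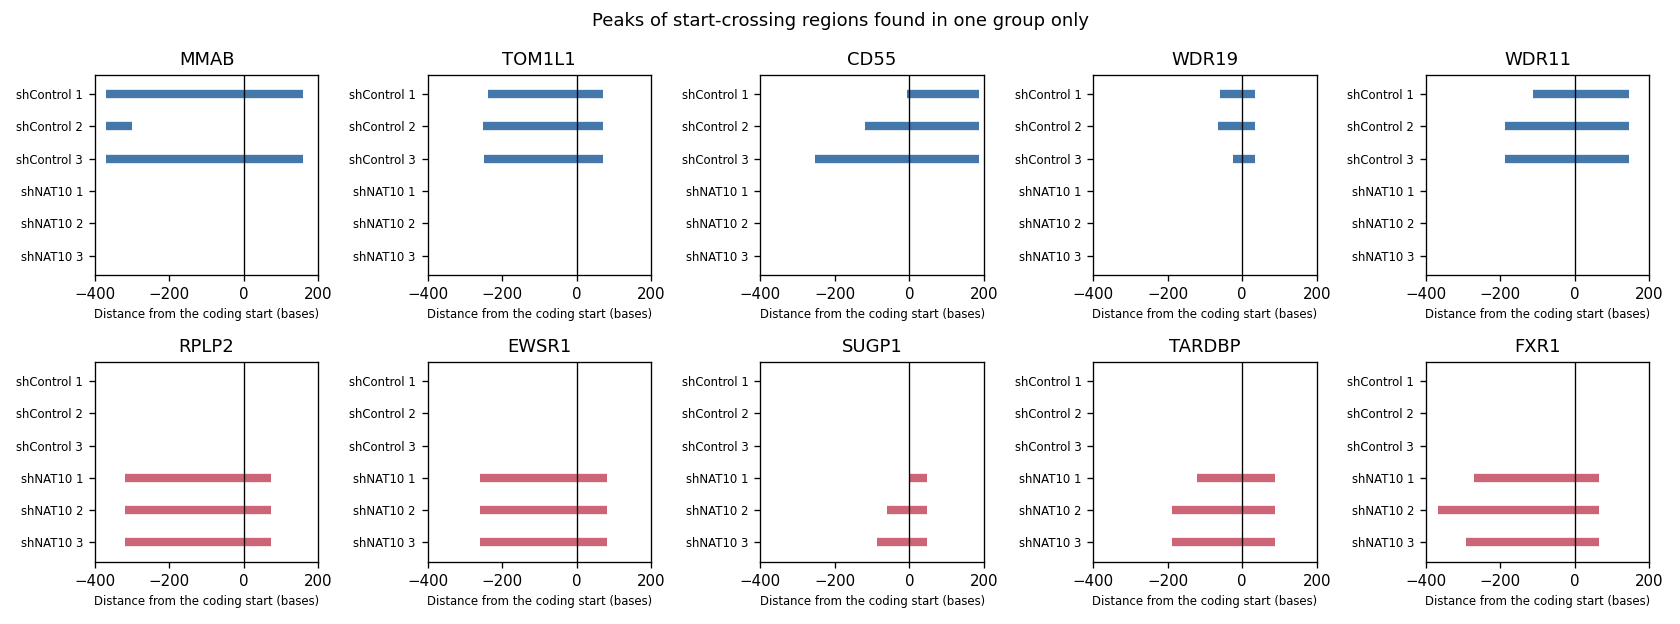
For the 10 start-crossing regions listed by all 3 libraries of 1 group and none of the other, bars give each library's peak (rows) by distance in bases from the annotated start of the coding gene. RPLP2 and EWSR1 have identical peaks in the 3 shNAT10 libraries, while the CD55 peaks run different distances upstream.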

How the data were processed

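The authors called peaks in each immunoprecipitated library with a caller that names them as MACS does, and deposited 1 list per library, described as mRNA peaks, in which each peak carries a score. The labels give the build as GRCh38. Aligner, caller version and settings are not given in the sources used here. The deposited score is the authors' own value, with no unit stated.

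Peaks were pooled and merged when they shared at least 1 base on the same strand. Coding gene spans came from the RefSeq table of GRCh38.p14, which has no strand. Strand was taken from RefSeq promoter and microRNA tables and was known for 15842 of 20037 coding genes, and for none on chromosome 8, where 42 of the regions lie. Groups came from sample titles. Shares were compared by two-sided exact permutation tests over libraries, and peaks within libraries by two-sided exact sign-flip tests over 6 libraries. Merging, placing and calling were tested on simulated data, where 200 of 200 planted regions among 41755 were recovered.

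Named were, for each kind, the 10 regions in all 6 libraries with the highest lowest score (ties by length), up to 5 regions per direction found in a single group, the 10 non-coding genes with the most regions, including those of unknown strand, a list of 45 non-coding RNAs, and NAT10. An item that this rule selects is not reported here. Other regions and microRNAs were named after their values were seen. Members and lists were chosen with earlier results of these data known. Alternatives were the best-scored 50% of peaks, an equal number of peaks (17877), placing by any base, spans extended by 1000 bases, strand ignored, 50% coverage, a difference of 2 libraries, a replicate block and each library left out. GC content of peaks was not computed, as no genome was used here. Python 3.11.15, numpy 2.4.6 and pandas 2.3.3 were used.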

Additional observations from a re-analysis of the deposited data

How the results depend on the processing

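Peaks outside coding genes were longer under every alternative tried. The difference, 133 bases in the main setting, was 41.2 with no base in a gene of the same or unknown strand. It was 71.2 with spans extended by 1000 bases. The higher score percentile of these peaks turned negative in the first of these settings (-9.08 points) and in the second (-7.73). Their higher share in regions of all 6 libraries turned to -14.9 and -7.95 points; the -14.9 setting was added after the data were seen. The first setting moves all 901 regions that touch a coding gene of the same or unknown strand to the other peaks. The second moves regions whose midpoint is within 1000 bases of such a gene. In each case the moved peaks are then part of the comparison group. With each library left out in turn, the length difference was 126 to 136 bases, the percentile difference 11.2 to 12.2 and the share difference 8.95 to 12.2, with p = 0.0625 by the exact sign-flip test, the smallest that 5 libraries allow.

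The count of regions listed by a single group (15) was 0 with spans extended by 1000 bases and 123 with a difference of 2 libraries. Leaving out a library gave 26 to 42, since fewer libraries have to match. The balance of 8 shControl against 7 shNAT10 regions was 4 against 8 with the best-scored 50% of peaks, 10 against 6 with equal numbers of peaks, and 25 against 10 without shControl replicate 1. The share of peaks outside coding genes differed by -0.243 to 0.00732 points without 1 library, above 0 only without shNAT10 replicate 1. For peaks in no coding gene the range was -0.177 to 0.0687, above 0 without shControl replicate 1 (0.0269) and without shNAT10 replicate 1 (0.0687). For peaks opposite to a gene it was -0.0664 to -0.0540.

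Under a replicate block, the paired difference was -0.149 points for the share outside (exact sign-flip p = 1), -0.0602 for the opposite share (exact p = 0.25, the smallest that 3 pairs allow) and -0.0889 for the share in no coding gene (exact p = 1). Deviations of same-numbered libraries correlated at 0.00234 to 0.0318, so no pairing by number was seen in these values. Whether same-numbered libraries shared a culture or batch cannot be told from them. The unknown depth and the 7635 regions of unknown gene strand limit all counts.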
